A study of Rattus norvegicus with 6 samples.

Results

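The respiratory chain and ATP synthase of the mitochondrial inner membrane were followed through the nuclear genes of their subunits in rat cerebral arteries. Members were taken by name: every gene with a probe set of its own, that is, one annotated to no other gene, whose symbol began with Nduf, Uqcr or Atp5, or with Cox4 to Cox8 and a letter. The rule gave 96 of the 18166 genes measured in this way: 40 of complex I, 9 complex I assembly factors, 9 of complex III, 18 of complex IV and 20 of the ATP synthase. The naming rule itself uses no measured difference, though it was written with earlier results of these data known. Each of the 5 genes with several probe sets was represented by the brightest over all arrays. Of the 96 symbols, 17 name pseudogenes or loci that resemble another member, called copies here, and probes of near-identical copies can share signal, so single values of copies and of their parent genes are uncertain.

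Complexes I, III and IV pass electrons from NADH to oxygen by way of coenzyme Q and cytochrome c and pump protons out of the mitochondrial matrix, and the ATP synthase lets the protons return to make ATP. Complex II feeds electrons from succinate into the same chain without pumping. Most subunits are encoded in the nucleus and imported, while a few core subunits are encoded by mitochondrial DNA. In arterial smooth muscle this chain supplies ATP beside glycolysis, and several cytochrome oxidase subunits exist in a widespread form and a form restricted to certain tissues.

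Arteries of male rats were compared 6 hours after subarachnoid haemorrhage (SAH), bleeding between the membranes that cover the brain, and after a sham operation. There were 3 arrays in each group, numbered 1, 4 and 5 for SAH and 6, 7 and 8 for sham. The labels leave out strain, age, how the bleed was made, the time after surgery of the sham samples and whether each array held another animal. The p-values therefore measure the spread between these samples. The values are log2 expression values after RMA, which gives all arrays nearly the same distribution, with array medians of 7.31 to 7.37 and correlations between arrays of 0.970 to 0.991. The smooth muscle markers Myh11 (smooth muscle myosin) and Tagln (transgelin) read at least 12.51 on each array, far above those medians, as the label of cerebral artery implies, while Pecam1 and Acta2 had no probe set of their own. In whole arteries, fewer cells of a type and less RNA per cell cannot be told apart.

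No member passed the test at an adjusted p under 0.05 (limma, Benjamini-Hochberg adjustment over 36495 probe sets), in a comparison that called 1.29% of all genes, 0.963% as higher and 0.33% as lower. At an unadjusted p under 0.05, 18 members were lower in SAH arteries and 2 were higher, which is 18.8% of members lower against 10.5% of all genes and 15.6% of those past a filter on dim probe sets. The 2 higher members compare with 8.16% of all genes. In 36 members, or 37.5%, all 3 SAH arrays read below all 3 sham arrays, against 15.4% of all genes and 22.1% of those past the filter, which 81 members passed. The opposite arrangement was found in 2 members, or 2.08%, against 11.4% of all genes. The difference, SAH minus sham, was below 0 in 71 members (74.0%, against 52.7% of all genes and 58.3% of those past the filter), and its median was -0.15 on the log2 scale, against -0.01 over all genes and -0.05 over genes past the filter. These are descriptions of the members beside all genes, since members share their samples and are not replicates.

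The complexes did not show the same values. Complex I had a median difference of -0.20, with 35 of 40 members below 0. In that direction, 16 members (40.0%) were without overlap, against 15.4% of all genes and 22.1% of those past the filter. The 9 assembly factors had a median of -0.12, complex III one of -0.06 and complex IV one of -0.01, with 9 of its 18 members below 0. For the ATP synthase the median was -0.09 over all 20 members and -0.21 over the 14 that are no copies. The 17 copies had a median of 0.02, with 8 below 0, against 63 of the 79 other members. Differences between complexes were not tested.

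**Figure D1:**
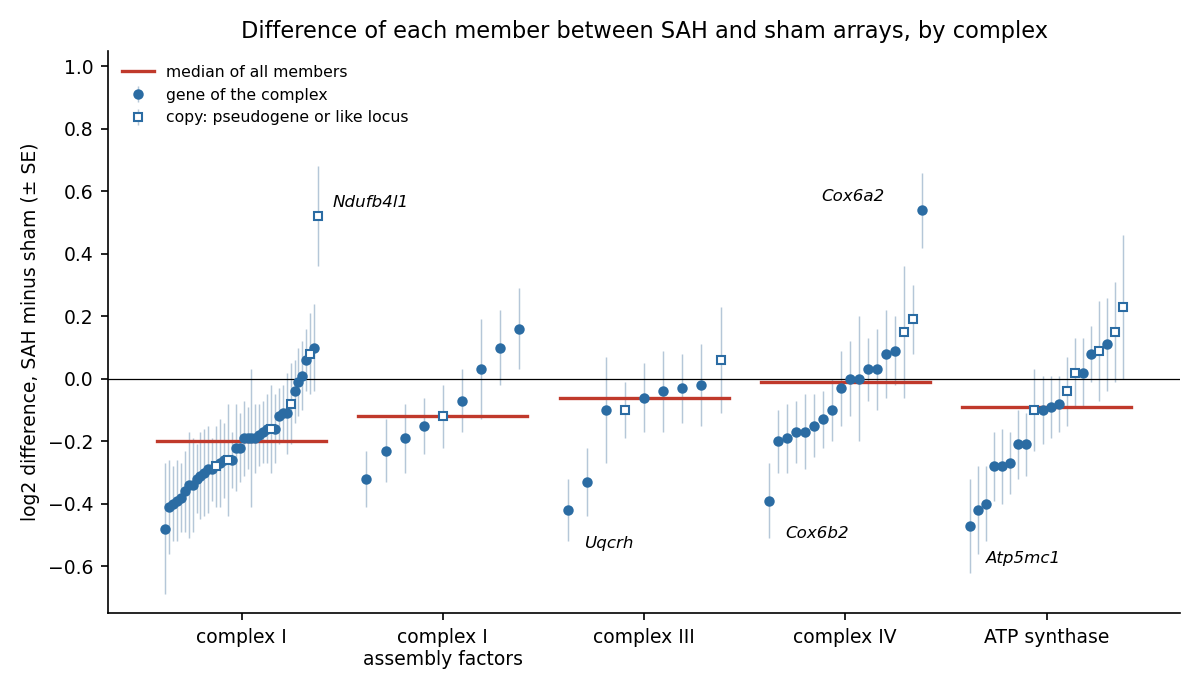
Log2 difference, SAH minus sham (n = 3 arrays each), of each of the 96 members with limma's standard error as a line, sorted within each class, with filled circles for genes, open squares for copies and a red line for the median of the class. Most complex I points lie below 0, complex IV points lie on both sides, and Cox6a2 at 0.54 and the copy Ndufb4l1 at 0.52 stand above the rest.

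The arrays carried this pattern to different degrees. Over the 34 complex I genes that are no copies, the median deviation from the sham mean was -0.24, -0.14 and -0.26 over the SAH arrays in the order 1, 4, 5, and 0.08, -0.08 and -0.02 over the sham arrays in the order 6, 7, 8, an order kept for all values that follow. Over the 14 ATP synthase genes it was -0.16, -0.13 and -0.27 in the SAH arrays and 0.07, -0.03 and -0.04 in the sham arrays. SAH array 4 was the nearest to the sham arrays in both complexes, and sham array 6 was the highest of the 6. Without sham array 6, the number of members lower at an unadjusted p under 0.05 was 4 rather than 18, and without SAH array 5 it was 9. Fewer of all genes were also called at an adjusted p under 0.05 in these fits, 29 and 59 rather than 235.

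**Figure D2:**
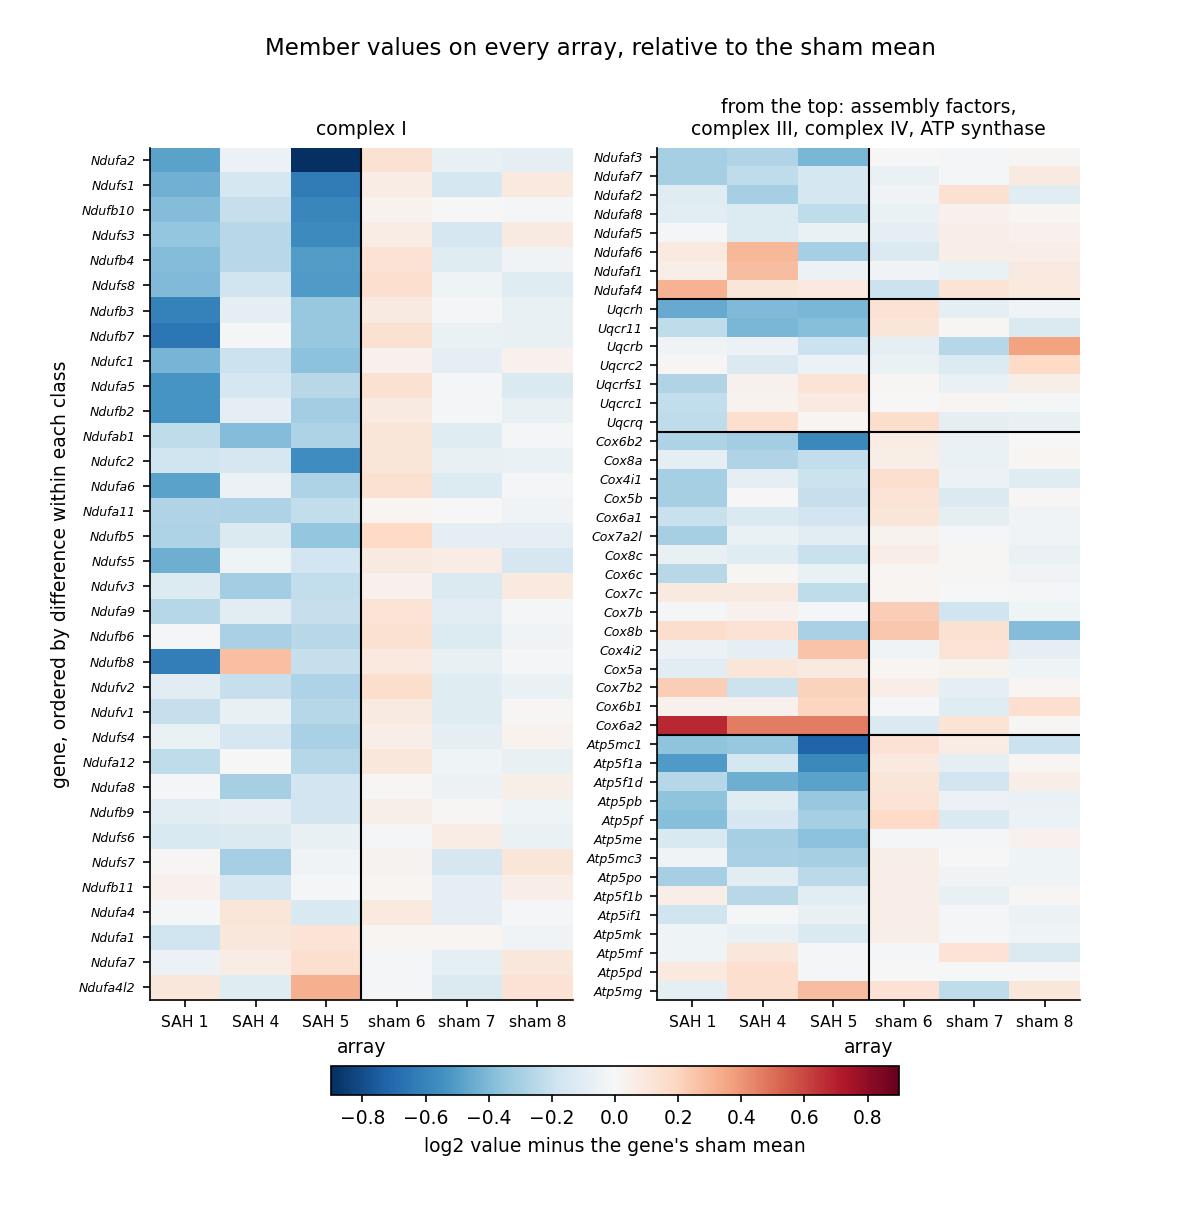
Deviation of each array's log2 value from the gene's sham mean for the 79 members that are no copies, with arrays as columns and genes as rows ordered by difference within each class, blue below and red above the sham mean. Complex I genes are bluest in SAH arrays 1 and 5, and Cox6a2 is red in all 3 SAH arrays.

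Some member promoters are printed because the nuclear genes of the chain are known to share binding sites for a few factors. Those of the complex IV isoform genes Cox6a2 and Cox6b2 are printed because they lack the same letters, as other member promoters also do. Sequences come from the RefSeq promoter table (build GRCr8), which held 77 of the 96 members, as 300 bases from 250 before to 50 from the gene's first base on. The letters searched on both strands were CCGGAAG for ETS factors such as GABP, GCATGCG for NRF1, TGACCTT for oestrogen-related receptors (ERR) and AAGATGG for YY1. AAAAATA, the core of sites of the muscle factor MEF2, was added after the promoters had been read. Capitals mark these matches below, where the 250 bases before each gene start are given 5′ to 3′ on the gene's strand.
Ndufs1: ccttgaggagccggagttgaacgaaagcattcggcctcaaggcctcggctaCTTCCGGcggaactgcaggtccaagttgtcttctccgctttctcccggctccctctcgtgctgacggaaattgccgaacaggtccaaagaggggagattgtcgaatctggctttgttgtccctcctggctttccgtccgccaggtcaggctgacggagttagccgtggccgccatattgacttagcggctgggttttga
Uqcrh: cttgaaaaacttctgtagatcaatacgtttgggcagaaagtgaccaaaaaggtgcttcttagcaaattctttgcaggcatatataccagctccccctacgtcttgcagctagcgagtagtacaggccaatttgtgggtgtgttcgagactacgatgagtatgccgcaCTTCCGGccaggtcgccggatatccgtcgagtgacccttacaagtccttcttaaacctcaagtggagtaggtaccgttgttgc
Atp5pf: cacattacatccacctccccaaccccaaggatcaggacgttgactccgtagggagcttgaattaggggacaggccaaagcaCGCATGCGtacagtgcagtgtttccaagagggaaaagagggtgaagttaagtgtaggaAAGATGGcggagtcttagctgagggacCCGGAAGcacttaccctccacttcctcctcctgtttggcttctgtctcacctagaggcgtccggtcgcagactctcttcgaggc
Cox6a2: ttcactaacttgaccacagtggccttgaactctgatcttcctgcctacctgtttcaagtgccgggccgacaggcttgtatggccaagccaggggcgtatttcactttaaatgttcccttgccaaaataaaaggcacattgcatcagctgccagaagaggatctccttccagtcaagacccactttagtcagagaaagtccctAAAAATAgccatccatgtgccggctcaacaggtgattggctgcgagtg
Cox6b2: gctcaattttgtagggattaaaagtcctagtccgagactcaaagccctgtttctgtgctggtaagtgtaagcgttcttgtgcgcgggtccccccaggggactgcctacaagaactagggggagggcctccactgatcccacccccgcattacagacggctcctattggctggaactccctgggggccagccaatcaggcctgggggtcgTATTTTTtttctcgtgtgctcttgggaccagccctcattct

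Ndufs1 (chr9:72073606-72073855, minus strand), Uqcrh (chr5:134790883-134791132, minus strand) and Atp5pf (chr11:37375102-37375351, minus strand) are examples of promoters with a match, from complexes I and III and the ATP synthase, and most promoters of complex I and the ATP synthase have no ETS match. Each of the 3 holds the ETS letters, in reverse in Ndufs1 at positions -199 to -193 and in Uqcrh at -83 to -77, counted from the gene's first base as 0, and forward in Atp5pf at -84 to -78. Atp5pf also holds the YY1 letters at -111 to -105 and the NRF1 letters on both strands, in overlapping matches at -169 to -162. Cox6a2 (chr1:192219717-192219966, minus strand) and Cox6b2 (chr1:78122621-78122870, plus strand) hold none of the 4 motifs, and each has a match to the MEF2 letters, at -48 to -42 in Cox6a2 and, in reverse, at -41 to -35 in Cox6b2.

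Over the 77 member promoters, the ETS letters were found in 19 (24.7%), against 9.22% of the 27457 promoters of the table. By class these were 6 of 35 promoters of complex I, 2 of 7 of assembly factors, 3 of 6 of complex III, 3 of 13 of complex IV and 5 of 16 of the ATP synthase. YY1 letters were found in 18 (23.4%, against 7.30%), NRF1 letters in 11 (14.3%, against 3.54%) and ERR letters in 9 (11.7%, against 4.37%). At least 1 of these 4 motifs was present in 39 member promoters, and matches of different motifs never overlapped in them. MEF2 letters were found in 7 (9.09%), close to the 8.34% of all promoters. Member promoters had a median GC content of 55.7%, against 52.3% over the table, which also holds genes that encode no protein. A match is a string of letters and not a shown binding site.

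**Figure D3:**
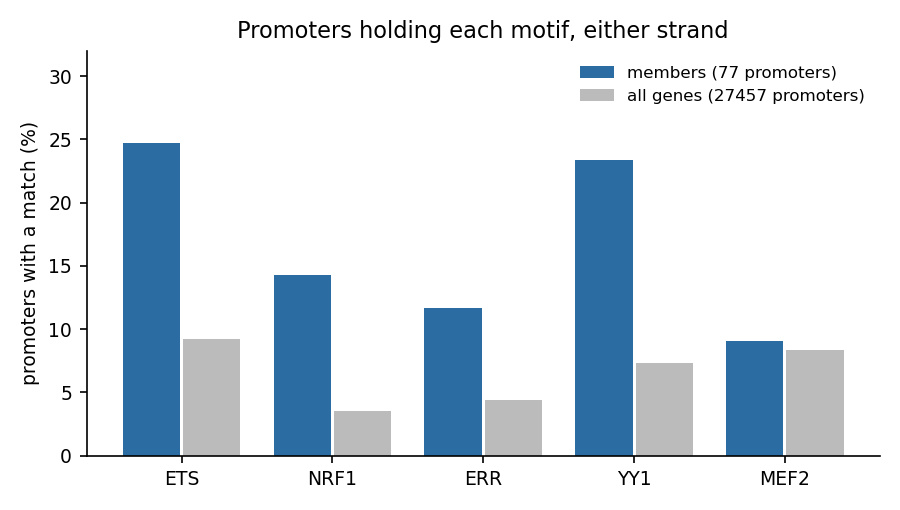
Percentage of promoters that hold each motif on either strand, for the 77 member promoters (blue) and all 27457 promoters of the RefSeq table (grey). The member bar is the higher one for ETS, NRF1, ERR and YY1, and the bars are near each other for MEF2.

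Complex I takes electrons from NADH in a module that extends into the matrix. The genes of each complex I module were listed with their values already seen. Ndufa6 and Ndufa7, at -0.27 and 0.06, were not listed under this module. All 8 genes listed for it were below 0, against 52.7% of all genes and 58.3% of those past the filter on dim probe sets. Their median was -0.18, with a range of -0.48 to -0.11. Only Ndufs6 had groups without overlap in that direction, which is 12.5% of the 8, against 15.4% of all genes and 22.1% of those past the filter. Ndufs1, which encodes the largest iron-sulphur subunit, read 9.13, 9.40 and 8.93 in the SAH arrays against 9.63, 9.40 and 9.65 in the sham arrays, a difference of -0.41 ± 0.15 (log2, SE; limma adjusted p = 0.277). SAH arrays 1 and 5 lay below the sham arrays and SAH array 4 met the lowest of them. Ndufa2, an accessory subunit, had the lowest difference of all members, -0.48 ± 0.21 (limma adjusted p = 0.372), from 7.27, 7.70 and 6.85 against 7.89, 7.68 and 7.66. Its SAH array 4 was within the sham range, and SAH array 5 was the lowest of all. Ndufv1, the subunit that binds NADH and the flavin cofactor, differed by -0.18 ± 0.10 (limma adjusted p = 0.503) with overlapping groups.

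The next module hands electrons to coenzyme Q. The 5 genes of it that are reported here were all below 0, as were 52.7% of all genes. Their median was -0.31, with a range of -0.39 to -0.11. Of these, 4 (80.0%) had groups without overlap, against 15.4% of all genes and 22.1% of those past the filter on dim probe sets. Ndufs3, a core subunit, read 8.07, 8.17 and 7.85 in the SAH arrays against 8.49, 8.27 and 8.50 in the sham arrays, a difference of -0.39 ± 0.13 (limma adjusted p = 0.227). Ndufs8, which carries iron-sulphur clusters, read 9.33, 9.55 and 9.22 against 9.88, 9.69 and 9.62 and differed by -0.36 ± 0.13 (limma adjusted p = 0.258). Ndufa9, an accessory subunit at the joint of the arms, read 9.83, 9.99 and 9.88 against 10.21, 9.99 and 10.08, with a difference of -0.19 ± 0.10 (limma adjusted p = 0.464). The groups of Ndufs3 and Ndufs8 did not overlap but lay close. The highest SAH array was at 8.17 against 8.27 for the lowest sham array in Ndufs3, and at 9.55 against 9.62 in Ndufs8. In Ndufa9, SAH array 4 and sham array 7 were equal to 2 decimals.

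The membrane arm pumps protons, and its core subunits are encoded by mitochondrial DNA, so the nuclear genes measured here are accessory subunits. The 13 Ndufb, Ndufc and Ndufab1 genes that are no copies were all below 0, with a median of -0.29 and a range of -0.40 to -0.04. Below 0 were also 52.7% of all genes. These 13 are not the whole arm: Ndufa1, Ndufa8, Ndufa11 and Ndufs5, at 0.01, -0.16, -0.26 and -0.22, were not listed with them. Of these, 9 (69.2%) had groups without overlap, against 15.4% of all genes and 22.1% of those past the filter on dim probe sets. Ndufb10 read 9.56, 9.74 and 9.36 in the SAH arrays against 9.98, 9.95 and 9.93 in the sham arrays, a difference of -0.40 ± 0.12 (limma adjusted p = 0.203). Ndufb4 read 9.09, 9.23 and 8.98 against 9.61, 9.37 and 9.45, a difference of -0.38 ± 0.11 (limma adjusted p = 0.207). For both genes, which have the smallest p-values of complex I, each SAH array was under each sham array. Ndufc2, another membrane subunit, read 12.14, 12.17 and 11.76 against 12.43, 12.25 and 12.26, a difference of -0.29 ± 0.14 (limma adjusted p = 0.401). Ndufab1, the mitochondrial acyl carrier protein that sits in complex I, differed by -0.29 ± 0.10 (limma adjusted p = 0.264), with 9.76, 9.60 and 9.71 against 10.10, 9.88 and 9.98.

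Of the remaining accessory genes, Ndufa11 was at -0.26, Ndufa6 at -0.27, Ndufs5 at -0.22 and Ndufa8 at -0.16, while Ndufa1 and Ndufa7 were at 0.01 and 0.06. Only Ndufa11 among these 6 had groups without overlap. Ndufa4, whose product is now assigned to complex IV although its name places it here, read 11.41, 11.54 and 11.29 against 11.52, 11.34 and 11.42, a difference of -0.01 ± 0.11 (limma adjusted p = 0.978). Its relative Ndufa4l2, which is induced by hypoxia in many cells and marks pericytes, the contractile cells of small vessels, differed by 0.10 ± 0.14 (limma adjusted p = 0.797). Both had overlapping groups, and the sign of each turned with the neutrophil marker level as a covariate and when single arrays were left out. The copy Ndufb4l1 read 6.15, 6.50 and 6.59 against 5.95, 6.08 and 5.66, a difference of 0.52 ± 0.16 (limma adjusted p = 0.222), while its parent Ndufb4 lay at -0.38. Ndufb4l1 did not pass the filter on dim probe sets, and its signal cannot be assigned with certainty to that locus. Ndufa3 and Ndufa10 were measured only by probe sets that also name a relative, which differed by -0.44 and -0.18 and were left out. Ndufs5 also had such a shared probe set beside its own, at -0.38.

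Assembly factors build complex I without staying in it. Ndufaf3, which acts early in the assembly of the module that reaches coenzyme Q, read 8.10, 8.13 and 7.99 in the SAH arrays against 8.40, 8.38 and 8.41 in the sham arrays, a difference of -0.32 ± 0.09 (limma adjusted p = 0.189). The sham values were nearly equal and all SAH values lay below them. Ndufaf7, a mitochondrial methyltransferase, differed by -0.23 ± 0.10 (limma adjusted p = 0.334), Ndufaf2 by -0.19 ± 0.11 (limma adjusted p = 0.495) and Ndufaf8 by -0.15 ± 0.09 (limma adjusted p = 0.537), all 3 without overlap between groups. Ndufaf1, Ndufaf4 and Ndufaf6 were above 0, at 0.10, 0.16 and 0.03, with overlap. Of the 9 assembly factors, 5 passed the filter on dim probe sets.

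Complex II is outside the naming rule and was set beside the members as a list of its 4 genes. All 4 read lower in each SAH array than in any sham array, as did 15.4% of all genes and 22.1% of those past the filter. Sdha, the flavoprotein that oxidises succinate, read 10.10, 10.28 and 9.88 against 10.57, 10.42 and 10.41, a difference of -0.38 ± 0.13 (limma adjusted p = 0.245). Sdhc, a membrane anchor, differed by -0.34 ± 0.10 (limma adjusted p = 0.190), Sdhd, the other anchor, by -0.31 ± 0.10 (limma adjusted p = 0.229) and Sdhb, the iron-sulphur subunit, by -0.22 ± 0.11 (limma adjusted p = 0.416). The list's median was -0.33, and none of the 4 passed the test.

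Complex III oxidises coenzyme Q and reduces cytochrome c. Its small hinge subunit Uqcrh, which sits beside cytochrome c1, had the smallest p among the members lower in SAH arteries. It read 10.94, 10.99 and 10.98 in the SAH arrays against 11.52, 11.30 and 11.35 in the sham arrays, a difference of -0.42 ± 0.10 (limma adjusted p = 0.136). The SAH arrays were nearly equal and below every sham array. Uqcr11, another small subunit, differed by -0.33 ± 0.11 (limma adjusted p = 0.236), from 10.89, 10.71 and 10.74 against 11.23, 11.13 and 10.99. The rest of the complex did not share these values: the Rieske iron-sulphur protein Uqcrfs1 was at -0.04 ± 0.13 (limma adjusted p = 0.932) and the core proteins Uqcrc1 and Uqcrc2 were at -0.03 ± 0.11 and -0.06 ± 0.11 (limma adjusted p = 0.933 and 0.874). Uqcrq, a small subunit, was at -0.02, and the pseudogene copy Uqcr10-ps1 at -0.10 ± 0.09 (limma adjusted p = 0.694). Uqcrb, which helps to form the coenzyme Q site, was at -0.10 ± 0.17 (limma adjusted p = 0.853), with sham array 8 at 8.67 and the other arrays between 8.05 and 8.28. A probe set that names both Uqcrb and its relative Uqcrbl1 was left out and differed by -0.36 (limma adjusted p = 0.506). The signs of Uqcrfs1, Uqcrc1, Uqcrc2 and Uqcrb turned when 1 array was left out.

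Among carriers between the complexes, Cycs, which encodes cytochrome c, read 11.10, 11.04 and 11.28 in the SAH arrays against 11.01, 10.59 and 10.85, a difference of 0.33 ± 0.14 (limma adjusted p = 0.344). It was named after its values were seen, as a carrier above 0. Etfdh, which passes electrons from fat oxidation to coenzyme Q, and Coq8a, which is needed to make coenzyme Q, had the smallest p-values of the list, with -0.37 ± 0.11 and -0.39 ± 0.12 (limma adjusted p = 0.211 and 0.206). Of 17 carrier genes measured, none was called and 10 were below 0, with a median of -0.04.

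Complex IV, cytochrome c oxidase, reduces oxygen, and here the isoforms of its subunit 6A lay on opposite sides of 0. Cox6a2, the heart and skeletal muscle form of subunit 6A, read 9.64, 9.42 and 9.42 in the SAH arrays against 8.83, 9.08 and 8.97 in the sham arrays. Group means were 9.50 ± 0.13 and 8.96 ± 0.12 (SD, n = 3 arrays each), a difference of 0.54 ± 0.12 or 1.45-fold (limma adjusted p = 0.109), and the groups did not overlap. With the filter on dim probe sets, which tests 18544 probe sets, its adjusted p was 0.0433 (limma), in a fit that called 3.17% of genes as higher, and over all alternatives it ranged up to 0.358. The widespread form Cox6a1 read 12.06, 12.13 and 12.09 against 12.37, 12.18 and 12.23, a difference of -0.17 ± 0.10 (limma adjusted p = 0.501). Each SAH array lay below each sham array for Cox6a1, opposite to Cox6a2.

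Subunit 6B showed the reverse arrangement. Cox6b2, the form known from testis, read 8.71, 8.68 and 8.41 against 9.06, 8.93 and 8.99, a difference of -0.39 ± 0.12 (limma adjusted p = 0.198) without overlap. Cox6b1, the widespread form, read 8.84, 8.84 and 8.99 against 8.78, 8.69 and 8.95, a difference of 0.09 ± 0.11 (limma adjusted p = 0.787), which was -0.05 with the neutrophil marker level as a covariate. In this pair the restricted form was the lower one, and the widespread form overlapped between groups.

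**Figure D4:**
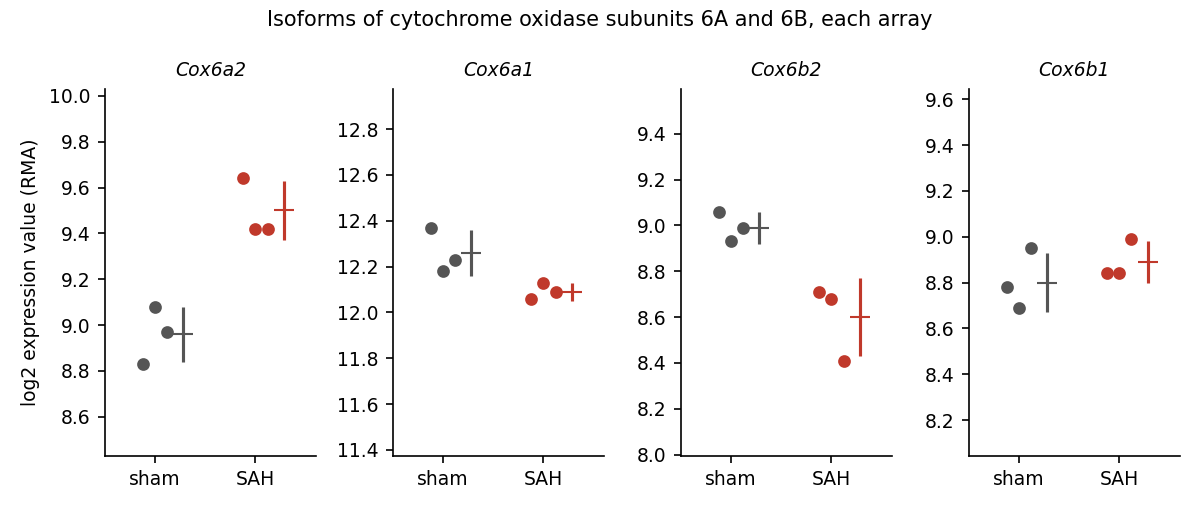
Log2 expression values of Cox6a2, Cox6a1, Cox6b2 and Cox6b1 on each array (points; grey sham, red SAH), with the group mean as a short bar and its SD (n = 3) as a vertical line; every panel spans the same log2 range. Cox6a2 is above and Cox6b2 and Cox6a1 are below the sham points in all 3 SAH arrays, and Cox6b1 overlaps.

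The balance of isoforms was described by the difference between the log2 values of the restricted and the widespread form on each array, for the 5 pairs measured, which were chosen with earlier results known. SAH minus sham, the Cox6a2 to Cox6a1 balance differed by 0.70 (0.58 to 0.80 with 1 array left out) and the Cox6b2 to Cox6b1 balance by -0.48 (-0.56 to -0.33), and neither overlapped between groups. The other pairs, which overlapped, differed by 0.22 for Cox4i2 against Cox4i1 (0.11 without SAH array 5 to 0.34), by 0.20 for Cox8b against Cox8a (0.00 without sham array 8 to 0.33) and by 0.12 for Ndufa4l2 against Ndufa4 (-0.06 without SAH array 5 to 0.29). Exact two-sided permutation tests over the arrays gave p between 0.1 and 0.7 (0.25 to 0.7 adjusted over the 5 pairs), and since 0.1 is the smallest p that 3 against 3 arrays allow, no pair could pass. Cox7a1 and Cox7a2 gave no pair, as neither had a probe set of its own. Probe sets that Cox7a2 shares with Cox7a2l2 differed by -0.10 and -0.29.

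The other subunits of complex IV differed by less. Cox4i1, the widespread form of the subunit through which ATP inhibits the enzyme, was at -0.19 ± 0.11 (limma adjusted p = 0.530), and Cox4i2, its lung and hypoxia-linked form, at 0.03 ± 0.13 (limma adjusted p = 0.943). Cox5a and Cox5b, assembled early on the core, were at 0.03 ± 0.10 and -0.17 ± 0.12 (limma adjusted p = 0.934 and 0.597). Cox8a read 12.12, 11.94 and 11.99 against 12.27, 12.15 and 12.23, without overlap, at -0.20 ± 0.10 (limma adjusted p = 0.420), and Cox8b, its muscle form, was at 0.00 ± 0.20 and did not pass the filter. The sign turned with 1 array left out for Cox4i2, Cox5a and Cox8b. Cox6c, Cox7a2l, Cox7b, Cox7b2, Cox7c and Cox8c ranged from -0.15 to 0.08. The copy Cox7cl1, at 0.19 ± 0.11 (limma adjusted p = 0.496), was also under the filter. The 3 mitochondrially encoded core subunits, COX1 to COX3, differed by -0.04 to -0.01, with levels of 13.08 to 13.76 at which array signal can be compressed.

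The ATP synthase has a catalytic head, a stalk and a proton-driven rotor. In the head, Atp5f1a, the alpha subunit, read 10.34, 10.69 and 10.27 in the SAH arrays against 10.94, 10.76 and 10.87, a difference of -0.42 ± 0.14 (limma adjusted p = 0.234). Atp5f1b, the catalytic beta subunit, read 12.79, 12.48 and 12.63 against 12.78, 12.66 and 12.74, a difference of -0.10 ± 0.11 (limma adjusted p = 0.758). Alpha and beta occur in equal number in the enzyme, and here alpha but not beta had groups without overlap, though the difference between these genes was not tested. Atp5f1d, the delta subunit of the central stalk, read 12.23, 12.05 and 12.01 against 12.60, 12.32 and 12.55, a difference of -0.40 ± 0.12 (limma adjusted p = 0.206). The gamma subunit gene Atp5f1c had no value of its own, and the probe set it shares with Taf3 differed by -0.02.

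In the membrane part, Atp5mc1, one of the genes for the c subunit of the rotor ring, read 9.85, 9.87 and 9.49 against 10.34, 10.28 and 10.02, a difference of -0.47 ± 0.15 (limma adjusted p = 0.216), without overlap. Atp5mc3, which encodes the same mature c subunit, was at -0.21 ± 0.11 (limma adjusted p = 0.449) with overlap. Atp5mc2 had no value of its own, and the probe set it shares with Atp5mc2l1 differed by -0.37. Of the peripheral stalk, Atp5pb was at -0.28 ± 0.11, Atp5pf at -0.28 ± 0.12 and Atp5po at -0.21 ± 0.10, all 3 without overlap, while Atp5pd was at 0.08 ± 0.09 (limma adjusted p = 0.329, 0.367, 0.407 and 0.761). Atp5me, a subunit at the base where synthase dimers form, was at -0.27 ± 0.10 (limma adjusted p = 0.285) without overlap. Atp5mk was at -0.08 ± 0.09 (limma adjusted p = 0.743), and Atp5if1, the inhibitor that stops the synthase from hydrolysing ATP, at -0.09 ± 0.10 (limma adjusted p = 0.741). The 6 copies in this class ranged from -0.10 for Atp5mc1l1 to 0.23 for Atp5mgl3.

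**Figure D5:**
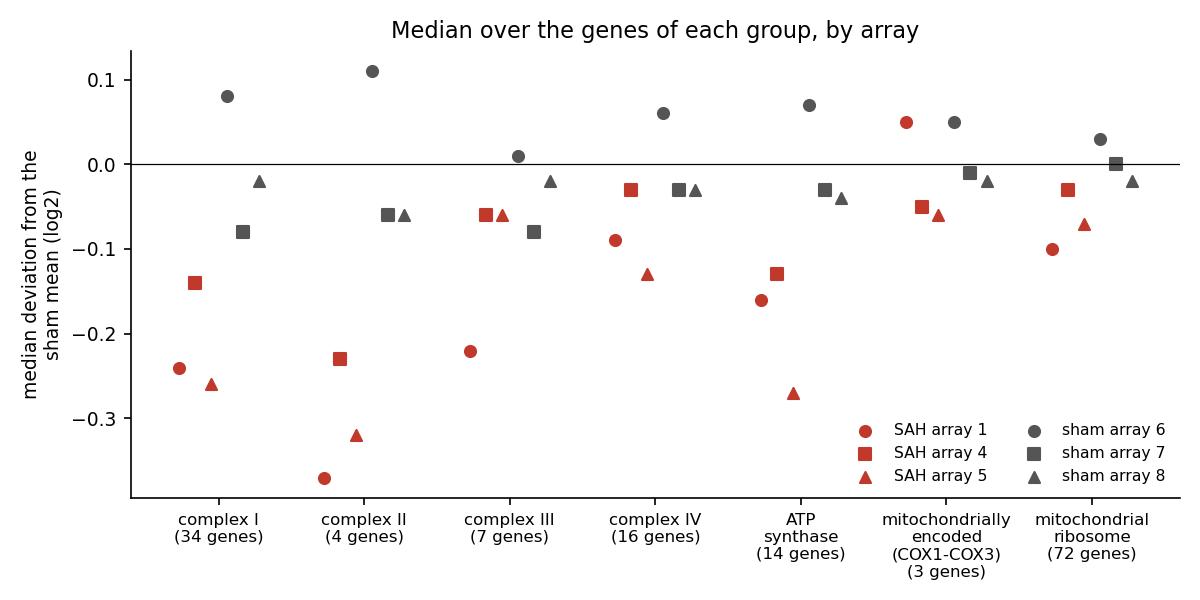
Median deviation from the sham mean (log2) over the genes of each group, without copies, on each array (red SAH, grey sham; 1 symbol for each array). For complex I, complex II, the ATP synthase and the mitochondrial ribosome all SAH points lie below all sham points, and for complexes III and IV and the mitochondrially encoded genes the arrays overlap or meet.

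Other mitochondrial lists were read the same way, and no gene in them was called. The mitochondrial ribosome had a median of -0.05 over 72 genes, 42 of them below 0, with Mrpl30 at 0.72 ± 0.14 and Mrps33 at -0.40 ± 0.11 (limma adjusted p = 0.0799 and 0.183). Protein import had a median of -0.06 over 25 genes, with Timm17b at -0.38 ± 0.09 and Timm21 at -0.52 ± 0.17 (limma adjusted p = 0.133 and 0.226). Assembly factors outside the naming rule had a median of -0.05 over 36 genes, but Lyrm7, which holds the Rieske protein for insertion into complex III, and Higd2a, which aids complex IV and supercomplex assembly, were at -0.57 ± 0.10 and -0.61 ± 0.15 (limma adjusted p = 0.0696 and 0.133). Lyrm7 read 7.68, 7.85 and 7.62 against 8.31, 8.26 and 8.30. Vdac1, the main channel of the outer membrane, and the phosphate carrier Slc25a3 were at -0.43 ± 0.12 and -0.19 ± 0.09 (limma adjusted p = 0.176 and 0.389), in a list of 9 genes with a median of -0.15. The cytosolic ribosome pattern, which also takes in pseudogenes and kinases such as Rps6ka2 (-0.60 ± 0.11, limma adjusted p = 0.0714), had a median of -0.05 over 195 genes, and its pseudogene Rps26-ps12 was at 0.73 ± 0.15 (limma adjusted p = 0.103).

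Regulators of mitochondrial gene expression did not share a direction: of 22 measured, 11 were below 0 and none was called. Nrip1, a corepressor known to restrain oxidative genes, read 10.01, 10.31 and 10.38 in the SAH arrays against 9.74, 9.76 and 9.68, a difference of 0.50 ± 0.12 (limma adjusted p = 0.140). Sirt3, a mitochondrial deacetylase, was at -0.24 ± 0.10 (limma adjusted p = 0.321). Ppargc1a, which encodes the coactivator PGC-1alpha, varied from 6.27 to 7.27 over the arrays, with a difference of -0.13 ± 0.27 (limma adjusted p = 0.874). Of 8 hypoxia-linked genes, Pdk1, a kinase that keeps pyruvate from the citrate cycle, was at -0.34 ± 0.09 and Hif1a at 0.35 ± 0.12 (limma adjusted p = 0.166 and 0.248).

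Marker lists of the cell types of an artery were read beside these values. All 8 smooth muscle markers measured were below 0, with a median of -0.29 and a mean level of 11.44 to 11.51 in the SAH arrays and 11.73 to 11.94 in the sham arrays. Smtn (smoothelin) was the single marker called, at -1.18 ± 0.13 (limma adjusted p = 0.0197), and Myh11 was at -0.40 ± 0.11 (limma adjusted p = 0.174). Abcc9 and Cspg4 led the pericyte list, at -1.08 ± 0.23 and -0.93 ± 0.21 (limma adjusted p = 0.108 and 0.123), and the medians of the endothelial, pericyte and fibroblast lists were -0.24, -0.21 and -0.19. In the same order, the genes ranged from -0.76 to 0.61, from -1.08 to 0.10 and from -1.20 to 0.00. Of the 8 endothelial markers measured, 3 were above 0. The part of these cell types in the members' values was not tested. Neutrophil markers had a mean level of 8.43, 8.51 and 9.50 in the SAH arrays and 6.99, 7.10 and 8.98 in the sham arrays. The median deviation over all members was -0.12, -0.11 and -0.19 in the SAH arrays and 0.05, -0.04 and -0.02 in the sham arrays. The monocyte and macrophage list had a median of -0.44, but its genes ranged from -1.29 to 1.86, with 3 of 10 above 0. The lymphocyte list had a median of 0.18 and a range of -0.29 to 0.38. With the neutrophil level as a covariate, 76 members were below 0 and 4, rather than 18, were lower at an unadjusted p under 0.05. The same fit also called fewer of all genes at an adjusted p under 0.05, 23 rather than 235. These counts use different thresholds, so they do not show whether the fall was particular to the members. The part of neutrophils in the members' values was not tested beyond this fit.

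For Cox6a2, the markers of striated muscle were read beside it. The mean level of the 7 skeletal muscle markers measured lay between 7.32 and 7.40 on every array, and Acta1 and Ckm were at -0.24 ± 0.13 and -0.07 ± 0.18 (limma adjusted p = 0.474 and 0.899). The 5 heart muscle markers had a median of 0.03, with Myh6 at 0.28 ± 0.11 (limma adjusted p = 0.310) and values of at most 6.31, below the median of every array. Ucp1, the defining brown fat gene, read 5.99 to 6.23. The other lists had medians of -0.50 for astrocytes, 0.40 for oligodendrocytes, 0.07 for neurons, -0.15 for the choroid plexus, -0.13 for brown fat and 0.34 for erythroid cells. Among them were the astrocyte gene Gjb6 at -1.28 ± 0.34, the oligodendrocyte gene Cnp at 0.88 ± 0.20, the neuronal and choroid plexus genes Snap25 and Ttr at -0.21 ± 0.45 and 0.21 ± 0.26 (limma adjusted p = 0.169, 0.121, 0.880 and 0.775).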

How the data were processed

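Expression was measured on 6 Affymetrix arrays of rat cerebral artery RNA, 3 after SAH and 3 after sham operation, grouped by the labels. The authors deposited log2 values made with Affymetrix Expression Console 1.1.2 and RMA, per the submitters' processing notes. RMA corrects background, equalises the arrays' distributions and summarises probes, so a general change in RNA amount cannot be seen, and bright and dim values are compressed. The genome build used for the arrays is not given in the sources used here.

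The table held 36685 probe sets. After 190 controls were set aside, 36495 went into the test. The platform annotation at GEO, brought up to date with the RefSeq gene table (GRCr8), gave 1 gene for 18511 of them, several for 575 and none for 17409. The SAH minus sham difference was fitted by lmFit and eBayes of limma 3.58.1 (R 4.3.3), two-sided and without covariates. P-values were adjusted by Benjamini-Hochberg over these probe sets, and a gene was called at an adjusted p under 0.05. Values are mean ± SD over 3 arrays or a difference ± limma's SE. The filter on dim probe sets kept those above the array's median on at least 3 arrays. The number of arrays limits the precision.

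The members, complex I modules, gene lists, isoform pairs and motifs were chosen with earlier results of these data known, so no test was made over a list. Named members are, in each class, the 4 with the smallest p and the brightest, both members of each isoform pair and the catalytic or defining subunits. In each other list the rule takes called genes, the 2 genes with the smallest p and the defining markers. Of the marker lists only some of these are given. No measured gene of the endothelial, fibroblast, neutrophil, monocyte and macrophage, lymphocyte or erythroid list is named. Further members are named to account for a module, with their values already seen. Alternatives were quantile normalization repeated, array medians subtracted, the dim filter, array weights, eBayes with its trend and robust settings, the mean of a gene's probe sets, the neutrophil marker mean as a covariate, each array left out, and, added after the data were seen, members without copies and counts at unadjusted p.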

Additional observations from a re-analysis of the deposited data

How the results depend on the processing

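No paired analysis was possible because the groups share no replicate numbers. No member was called lower under any alternative run, and the number called higher was 0 in each except 1 with the filter on dim probe sets, where fewer probe sets were tested. Differences below 0 were found in 69 to 76 of the 96 members over the alternatives that kept all members. The number higher at an unadjusted p under 0.05 was 2, and 1 with the dim filter, 1 without copies, 3 with the neutrophil covariate and 1 to 2 with an array left out (1 without SAH array 5 or sham array 8). The number lower was 18, and 4 with the neutrophil covariate and 4 to 23 with an array left out. Of all genes, 235 were called at an adjusted p under 0.05, 23 with the neutrophil covariate and 29 to 670 with an array left out. The complex IV median of -0.01 was -0.10 with the dim filter, -0.06 without copies and -0.07 to 0.00 with an array left out, that of the ATP synthase was -0.21 without copies, that of the assembly factors -0.15 to -0.06 with an array left out (-0.06 without sham array 8) and that of complex III, -0.06 in all arrays, -0.12 without sham array 7 to -0.04 without sham array 8. The balance of Ndufa4l2 against Ndufa4 ranged from -0.06 to 0.29 with an array left out.

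Signs turned for members near 0. With an array left out, the range was -0.08 to 0.10 for Cox4i2, -0.01 to 0.09 for Cox5a, -0.19 to 0.15 for Cox8b, -0.08 to 0.05 for Ndufa4, 0.00 to 0.21 for Ndufa4l2, -0.22 to 0.08 for Uqcrb, -0.09 to 0.06 for Uqcrc1, -0.12 to 0.03 for Uqcrc2 and -0.12 to 0.08 for Uqcrfs1. Cox8b was at -0.02 with quantile normalization repeated, -0.01 with array medians subtracted and -0.07 with array weights. With the neutrophil covariate, Cox6b1 was at -0.05, Ndufa4 at 0.04 and Ndufa4l2 at -0.06. The cause was not tested. Signal compression limits what can be seen of the brightest genes, and that of background limits the dimmest.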
